A study of Mus musculus with 69 samples.

Results

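The endothelin system genes measured here were Edn1, Ece1, Ednra and Ednrb, the ligand, its converting enzyme and its receptors, taken by symbol from the count files. These 4 genes were found among 24523 gene symbols with counts and all 4 passed the count filter of every comparison. Endothelin-1 is made as a long precursor, and endothelin converting enzyme 1, the product of Ece1, cuts the inactive intermediate to the active peptide. The ETA receptor, encoded by Ednra, sits mainly on vascular smooth muscle and mesangial cells and drives constriction. The ETB receptor, encoded by Ednrb, sits on endothelium, where it promotes nitric oxide release and clears the peptide, and on the collecting duct, where it opposes sodium reabsorption.

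Whole kidneys of female NZB/W F1 mice, a hybrid that develops lupus nephritis spontaneously, were perfused and harvested by Zeitgeber time (ZT, hours after lights on). The 30 young mice were 12 weeks old, untreated and without nephritis. The 27 nephritic mice were 30 to 45 weeks old, untreated, and harvested 2 to 3 weeks after the onset of heavy proteinuria, with blood urea nitrogen still low. The 8 remission mice were treated at 36 to 50 weeks of age with cyclophosphamide, CTLA4Ig and anti-CD40L, after proteinuria began. They kept remission and were harvested 8 weeks later at ZT0 or ZT12. Young and nephritic mice covered ZT0, 4, 8, 12, 16 and 20, with 3 to 7 mice in each diagnosis and time point. Age differed between young and diseased mice, so age and disease cannot be told apart here. Remission mice also had a later age range than nephritic mice, so age and remission cannot be told apart either. Remission libraries and 4 repeat libraries of young and nephritic mice share a column naming series of their own, and what it stands for is not stated, so this series and remission could be separated only through the 4 mice with a repeat library.

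Each original library is a mouse of its own. Titles of young and nephritic libraries follow different naming series, called set1 (6 young and 5 nephritic mice, all of ZT0 or ZT12) and set2 (24 and 22 mice). Total counts were 25257530 to 35744843 in young, 26596500 to 48075977 in nephritic and 13311278 to 21849912 in remission libraries. Levels are given as CPM (counts scaled to library size) after TMM scaling, and fold changes and adjusted p-values come from the edgeR quasi-likelihood test with Benjamini-Hochberg adjustment over all genes. Kidney identity was clear, with all 8 nephron genes checked at 5.62 CPM or more in every original library. Of these 8, Lrp2 (log2 change -0.94, SE 0.15) and Slc34a1 (-0.80, SE 0.14) were lower in nephritic mice. Some libraries stood apart. Remission ZT12 mouse 4 held 27 CPM of the clock gene Arntl, against 3.19 to 4.89 CPM in the other remission mice of ZT12. Nephritic ZT8 mouse 3 held 18 CPM, against 2.1 to 3.7 CPM in the others of its group. The summed CPM of 6 adrenal cortex genes, here without TMM scaling, passed 10 in 8 young, 2 nephritic and 1 remission library, the last at 10.1. Of these genes Cyp11b1 (log2 change -4.76, SE 1.73) and Star (-1.40, SE 0.63) were lower in nephritic than in young libraries. The median sum of the 6 genes, with TMM scaling, was 6.98 CPM in young and 5.92 in nephritic libraries. The part of the libraries with high sums in these 2 changes was not tested. Separately, the clock output gene Dbp was lower in nephritic mice (-0.57, SE 0.22). The repeat library of nephritic ZT12 mouse 6 lay nearest to nephritic ZT4 mouse 1 (r = 0.994 across genes) and not to its own original (r = 0.966).

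The ligand gene Edn1 (chromosome 13, 42301476 to 42307990, plus strand, GRCm38) is shown first because it changed most. The RefSeq window upstream of its start (chr13:42301226-42301475, GRCm38.p6) held none of the motifs searched, and is printed 5′ to 3′ for that reason.

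Edn1 upstream window: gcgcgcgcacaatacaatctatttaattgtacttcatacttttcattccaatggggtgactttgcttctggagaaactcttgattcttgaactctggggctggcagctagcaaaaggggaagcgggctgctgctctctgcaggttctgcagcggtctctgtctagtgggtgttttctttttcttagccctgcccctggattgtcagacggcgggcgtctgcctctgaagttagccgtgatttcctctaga

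The motifs were searched on both strands in 7 windows of the 4 genes, each 250 bases before to 50 after an annotated start: the clock E-box CACGTG, the D-box forms TTATGTAA and TTATGCAA, the nuclear receptor element AGGTCA, the AP-1 element TGANTCA, the GATA element AGATAA, the hypoxia core ACGTG and the TATA element TATAAA. Where transcription of Edn1 starts in these kidneys was not tested. Just past the annotated Edn1 start, at bases 9 to 26 (chr13:42301484-42301501), lay a reversed GATA element and a reversed hypoxia core, in capitals below.

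Edn1 start-site stretch: TTATCTctggctgCACGT

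Of 32851 mouse promoter windows of this length, 11.2% held AGATAA and 19.6% held ACGTG. The only E-box was in one of the 4 Ece1 windows (chr4:137913308-137913557), 90 bases before the start, where it overlaps the hypoxia core. CACGTG occurred in 7.15% of all windows.

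Ece1 upstream window: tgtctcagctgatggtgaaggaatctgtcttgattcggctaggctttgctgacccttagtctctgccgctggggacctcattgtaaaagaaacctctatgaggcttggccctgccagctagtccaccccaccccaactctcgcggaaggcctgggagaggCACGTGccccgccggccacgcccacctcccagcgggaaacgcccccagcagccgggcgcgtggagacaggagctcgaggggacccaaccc

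The Ednra and Ednrb windows held none of these letters. A match is a run of letters and was not tested as a binding site.

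To compare levels between genes, CPM was divided by the exon length of GENCODE M21. Ece1 was the most abundant of the system in young kidney, at 21.4 ± 2.67 CPM per kb (SD, n = 30). Ednrb followed at 6.06 ± 1.69 CPM per kb, and Ednra was the lowest of the 4 genes at 0.499 ± 0.102. Edn1 stood at 1.1 ± 0.337 CPM per kb in young and at 5.71 ± 5.46 in nephritic mice (n = 27). Edn3, the ligand with ETB preference, stood at 2.59 ± 0.441 CPM per kb in young and 2.58 ± 0.449 in nephritic mice. Per length, Edn3 RNA thus lay above Edn1 RNA in young kidney, and the mean of Edn1 lay above that of Edn3 in nephritic kidney, where Edn1 varied widely. Edn2 had no count in 22 of 30 young and 15 of 27 nephritic libraries and at most 2 counts in any, too few to test.

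**Figure D1:**
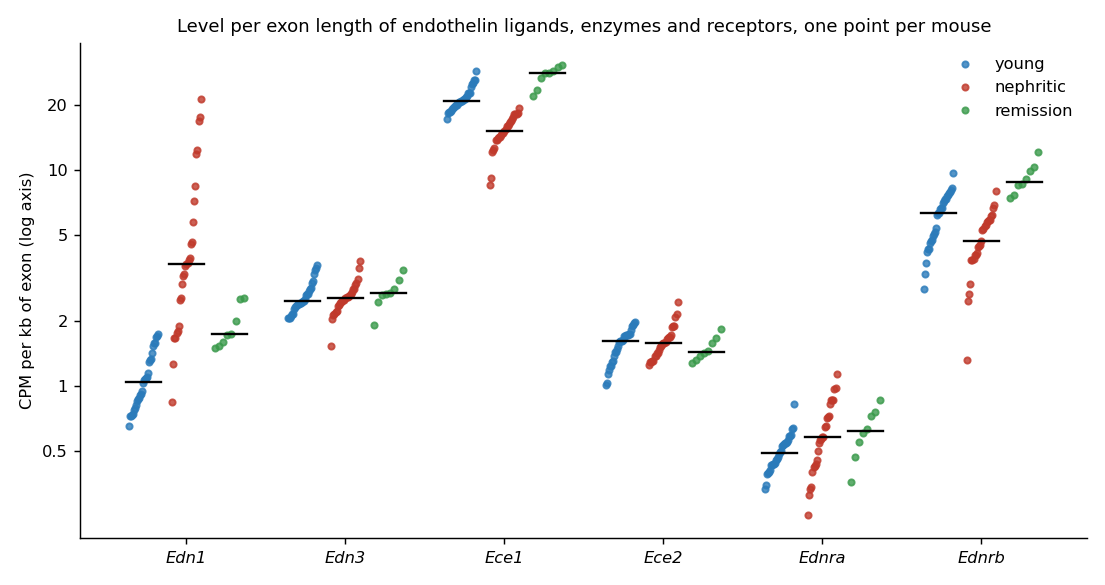
Level per exon length (CPM per kb, log axis) of 6 endothelin ligand, enzyme and receptor genes in young, nephritic and remission mice. Each point is a mouse and the bars are medians. Ece1 is highest throughout, and the nephritic mice spread widely in Edn1 and little in Edn3.

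Edn1 RNA was higher in nephritic than in young kidney. Across all time points it ranged from 1.39 to 3.74 CPM in young mice, with a median of 2.23, and from 1.8 to 45.4 CPM in nephritic mice, with a median of 7.86. Of the 27 nephritic mice, 23 lay above the highest young mouse. For this and later counts of mice beyond the range of another group, the share over all genes was not counted. Young libraries held 38 to 125 Edn1 counts and nephritic libraries 55 to 1638. With time point and title series in the fit, Edn1 was 4.55-fold higher in nephritic mice (log2 change 2.19, SE 0.23, edgeR adjusted p = 1.3e-11). The spread was also wider: the SD of log2 CPM was 1.2 in nephritic and 0.42 in young mice. All 4 endothelin genes passed the threshold in this comparison, as did 62.1% of the 17521 genes tested, so the count of 4 stands against a high background.

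At ZT0 the young mice held 1.59 to 3.59 CPM of Edn1, with a median of 2.3, and the nephritic mice 3.58 to 45.4 CPM, with a median of 12.3. The groups overlapped in 1 nephritic mouse. The fitted log2 change at ZT0 was 3.12 (SE 0.45, edgeR adjusted p = 5.9e-07). At ZT4 the nephritic mice held 8.34, 6.93, 7.05 and 9.68 CPM and the young mice 1.87, 3.27, 2.36 and 1.57 CPM, with no overlap and a log2 change of 1.78 (SE 0.57, edgeR adjusted p = 0.0155), lost without young ZT4 mouse 4 (adjusted p = 0.0522). At ZT8 the nephritic values were 1.8, 2.71, 8.21 and 4.07 CPM, and the highest came from the mouse whose Arntl level went against its label. The young mice of ZT8 held 1.55 to 1.97 CPM, and the difference did not pass the threshold (log2 change 1.24, SE 0.58, edgeR adjusted p = 0.272). Without that nephritic mouse it was 0.72 (SE 0.60, adjusted p = 0.905).

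At ZT12 young mice held 1.56 to 2.86 CPM of Edn1, with a median of 1.95, and nephritic mice 3.58 to 26.3 CPM, with a median of 11.6. These groups did not overlap, and the log2 change was 2.60 (SE 0.45, edgeR adjusted p = 7.5e-06). At ZT16 the nephritic mice held 3.76, 18 and 7.86 CPM and the young mice 3.74, 2.81, 3.39 and 1.39 CPM (log2 change 1.80, SE 0.60, edgeR adjusted p = 0.0291). The lowest nephritic and the highest young mouse of ZT16 almost met, and the call was lost without nephritic ZT16 mouse 2 (log2 change 1.05, adjusted p = 0.357), young ZT16 mouse 4 (1.59, adjusted p = 0.0965) or young ZT16 mouse 2 (1.80, adjusted p = 0.0589). At ZT20 the nephritic mice held 9.95, 3.84 and 7.68 CPM and the young mice 3.63, 3.37, 2.2 and 1.74 CPM, a difference that did not pass the threshold although the groups did not overlap (log2 change 1.37, SE 0.59, edgeR adjusted p = 0.193). The nephritic mean was the highest at ZT0, at 20.9 ± 17.9 CPM (SD, n = 7), and the lowest at ZT8, at 4.2 ± 2.83 CPM (n = 4). Of the 13 neighbouring pairs in the order of the 14 group means, none differed by more than the larger SD of the pair.

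**Figure D2:**
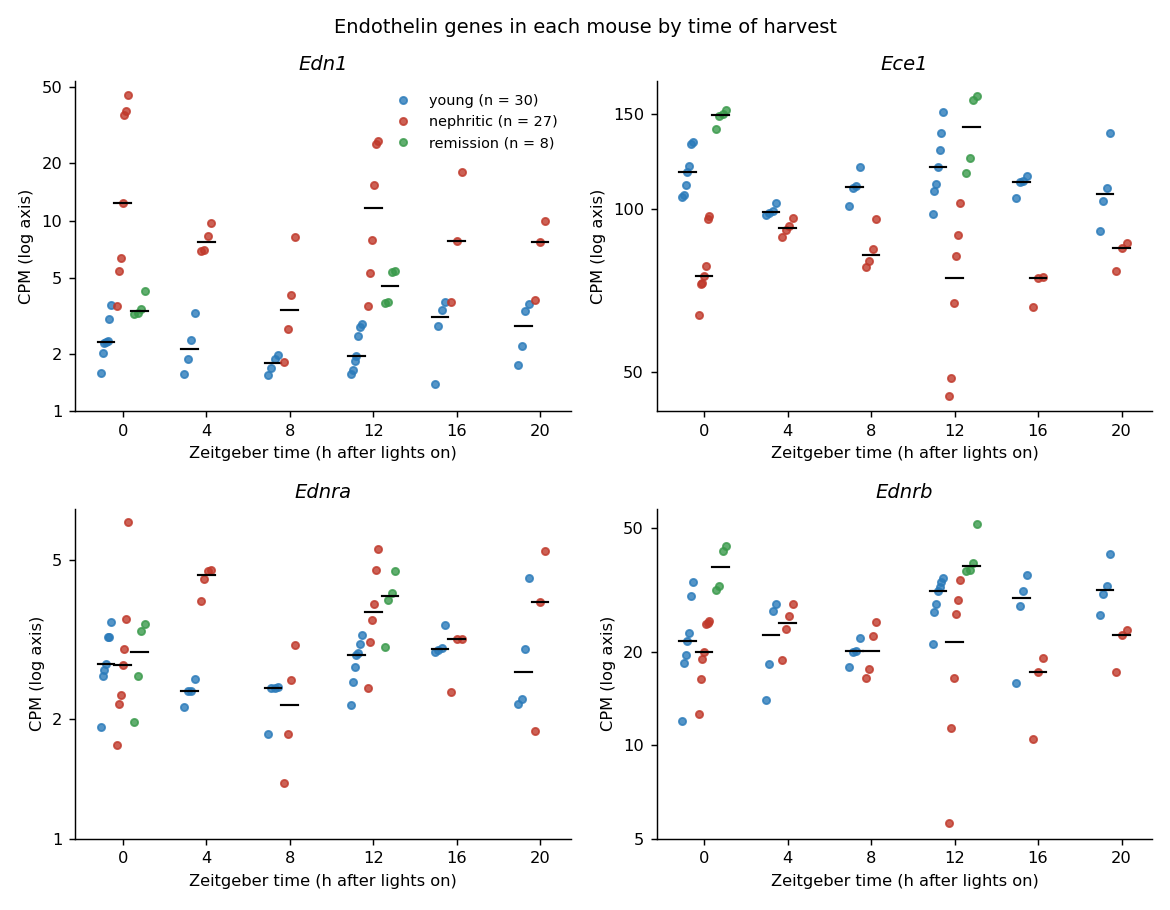
CPM (log axis) of the 4 endothelin genes against Zeitgeber time in hours. Each point is a mouse (young n = 30, nephritic n = 27, remission n = 8), points of a group are spread sideways, and bars are medians. Nephritic Edn1 values reach 45.4 CPM, while young values stay at or below 3.74 CPM, and Ece1 is lowest in 2 nephritic mice of ZT12.

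Ece1 RNA was lower in nephritic kidney. It ranged from 91.2 to 151.3 CPM in young mice, with a median of 110.5, and from 45.1 to 102.7 CPM in nephritic mice, with a median of 80.1. Of the 27 nephritic mice, 20 lay below the lowest young mouse. The log2 change over the day was -0.53 (SE 0.06, edgeR adjusted p = 2.0e-10), a fold of 0.694. Ligand RNA and converting enzyme RNA thus changed in opposite directions.

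By time point, Ece1 groups did not overlap at ZT0, ZT4, ZT8, ZT16 or ZT20, and overlapped in 1 nephritic mouse at ZT12. Small groups can separate without a call, as at ZT4 (edgeR adjusted p = 0.473), and the share of all genes that separate was not counted. At ZT0 young mice held 105.2 to 133.0 CPM, with a median of 117.0, and nephritic mice 63.8 to 97.0 CPM, with a median of 75.3. The log2 change was -0.58 (SE 0.11, edgeR adjusted p = 7.6e-05). At ZT12 the nephritic mice held 45.1 to 102.7 CPM, with a median of 74.5, and the young 97.8 to 151.3 CPM, with a median of 119.7 (log2 change -0.79, SE 0.12, edgeR adjusted p = 6.6e-07). The 2 lowest values, 48.7 and 45.1 CPM, came from nephritic ZT12 mice 1 and 2, both of set1. At ZT16 the nephritic mice held 74.5, 65.8 and 75.0 CPM and the young 112.2, 104.9, 115.2 and 112.4 CPM (log2 change -0.63, SE 0.16, edgeR adjusted p = 0.00425), and without nephritic ZT16 mouse 2 the adjusted p was 0.064. At ZT4, ZT8 and ZT20 the log2 changes were -0.15, -0.39 and -0.44 and did not pass the threshold. The background of called genes was 39.5% at ZT0, 30.3% at ZT4, 3.66% at ZT8, 50.0% at ZT12, 17.7% at ZT16 and 5.48% at ZT20, beside 2, 2, 0, 2, 2 and 0 of the 4 endothelin genes.

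Ednra changed little. It ranged from 1.83 to 4.52 CPM in young mice, with a median of 2.68, and from 1.38 to 6.25 CPM in nephritic mice, with a median of 3.17. Nephritic mice lay both above (6) and below (2) the whole range of the young. The log2 change over the day was 0.27 (SE 0.11, edgeR adjusted p = 0.0255), and without nephritic ZT20 mouse 1 the adjusted p was 0.0523. With all mice in the fit, ZT4 was the only time point at which Ednra passed the threshold. There the nephritic mice held 4.7, 3.96, 4.74 and 4.5 CPM and the young mice 2.14, 2.35, 2.52 and 2.35 CPM, with no overlap (log2 change 0.90, SE 0.28, edgeR adjusted p = 0.0117). At the other 5 time points the log2 changes lay between -0.10 and 0.44. Leaving out 1 mouse at a time brought ZT12 past the threshold in 2 cases, with a range of 0.32 to 0.56 and a lowest edgeR adjusted p of 0.0399.

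Ednrb was lower over the day in nephritic mice by a small margin that depended on the libraries used. It ranged from 12.0 to 41.3 CPM in young mice, with a median of 26.9, and from 5.61 to 34.0 CPM in nephritic mice, with a median of 19.9. The groups overlapped broadly, with 3 nephritic mice below and 3 young mice above the other group. The log2 change was -0.32 (SE 0.12, edgeR adjusted p = 0.0223). Without the libraries holding adrenal RNA it was -0.20 (SE 0.14, adjusted p = 0.225), in set2 libraries alone -0.16 (SE 0.11, adjusted p = 0.218), and leaving out 1 mouse at a time gave -0.35 to -0.23, with 10 of the 57 mice ending the call when left out. No single time point passed the threshold; ZT12, ZT16 and ZT20 gave log2 changes of -0.53, -0.83 and -0.65, and ZT0, ZT4 and ZT8 gave -0.16, 0.11 and 0.03. Leaving out 1 mouse at a time brought ZT12 past the threshold in 3 cases, with a range of -0.72 to -0.27 and a lowest adjusted p of 0.0175, and ZT16 in 2, with a range of -1.02 to -0.58 and a lowest adjusted p of 0.0426. At ZT16, 3 of the 4 young libraries held adrenal RNA, so the fit without such libraries (log2 change 0.01, SE 0.54, adjusted p = 0.999) leaves 1 young mouse of that time, the lowest of the 4 at 15.8 CPM, and assumes that it varies like the other groups.

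**Figure D3:**
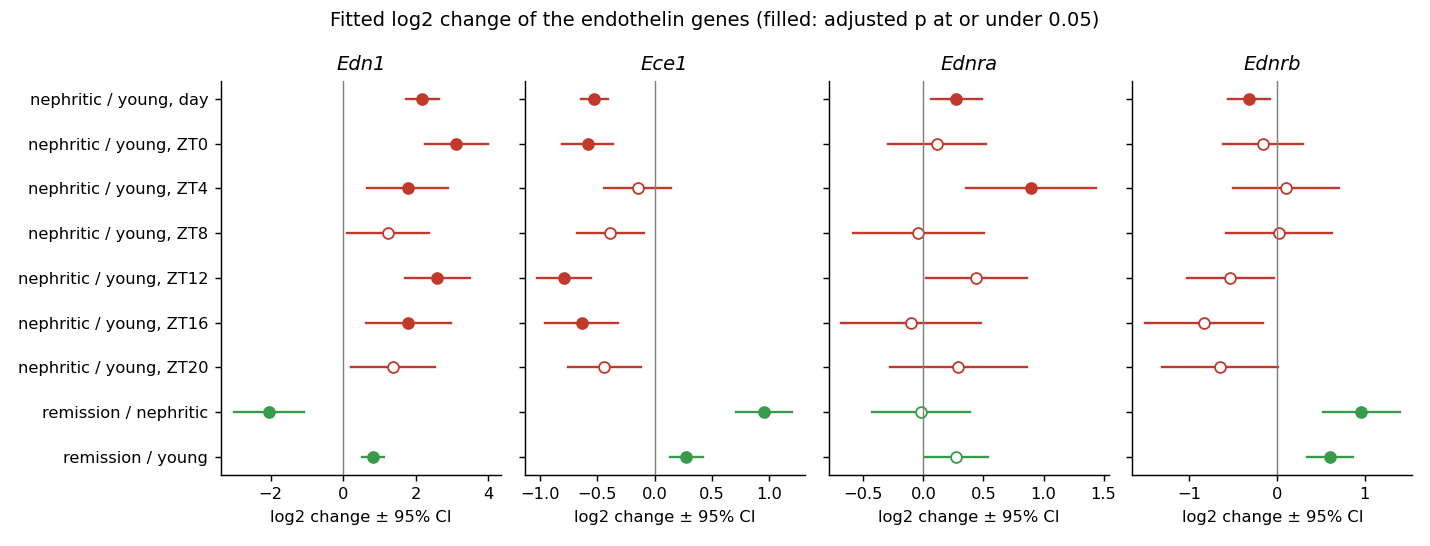
Fitted log2 change with 95% confidence interval for each endothelin gene in nephritic against young mice, over the day and by time point (red), and in remission against nephritic or young mice (green). Filled points passed an adjusted p of 0.05. Edn1 and Ece1 lie on opposite sides of 0 in nephritic mice.

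The study asked how renal time-of-day patterns change in nephritis, so variation over the 6 time points was tested next. In young mice Ednrb passed (edgeR adjusted p = 0.0205), and Edn1, Ece1 and Ednra did not (adjusted p = 0.288, 0.43 and 0.173). Of all genes tested in young mice, 39.8% passed. By mean CPM young Ednrb was lowest at ZT8, where the 4 mice lay between 17.8 and 22.1 CPM, and highest at ZT20, at 32.7 ± 6.3 CPM (SD, n = 4). The 4 mice of ZT20 held 30.6, 26.3, 41.3 and 32.6 CPM, all above those of ZT8. Both times were picked by their own means, so this separation is not a test. With title series in a fit of log2 CPM, the lowest time was ZT0 and the highest ZT20. A 24 h cosine, also with title series, gave an amplitude of 0.32 on the log2 scale (SE 0.10), from mean to peak, and a peak at 16.4 h. The call for Ednrb was lost without the libraries holding adrenal RNA (adjusted p = 0.0916), with the title series left out of the fit (adjusted p = 0.065), and without young ZT20 mouse 3 (adjusted p = 0.0535). Of the 8 young libraries with adrenal RNA, 3 were of ZT12 and 3 of ZT16, and the part of adrenal RNA in this pattern was not tested.

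In nephritic mice none of the 4 genes passed over the 6 time points (edgeR adjusted p = 0.235 for Edn1, 0.268 for Ece1, 0.164 for Ednra and 0.711 for Ednrb), where 21.6% of genes did. The difference in time course between nephritic and young mice was tested directly as an interaction, and again no endothelin gene passed (adjusted p = 0.214, 0.158, 0.295 and 0.388), where 6.27% of genes did. Ednrb passing in young and not in nephritic mice is therefore not a shown difference. Ednra in young mice passed under a cosine model (adjusted p = 0.0283), with an amplitude of 0.21 on the log2 scale (SE 0.07).

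Edn1 in nephritic mice moved with tubular injury genes. The summed CPM of 7 such genes (Lcn2, Havcr1, Vcam1, Timp1, Krt20, Spp1 and Clu) ran from 1621.5 to 2935.8 in young and from 1716.4 to 33586.0 in nephritic mice. All 7 were higher in nephritic mice, led by Timp1 (log2 change 5.19, SE 0.41), Lcn2 (4.95, SE 0.43) and Krt20 (3.73, SE 0.37). Over the 27 nephritic mice, after removing time point and title series, log2 Edn1 correlated with the log2 sum at Pearson r = 0.96 and Spearman rho = 0.96 (permutation p = 1.0e-05 for each, the smallest possible, adjusted p = 1.6e-04 over 16 relations). Without the 2 mice farthest from the median sum r was 0.95, and in the 22 set2 mice alone it was 0.96. The 5 set1 nephritic mice were too few for a value of their own.

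The other genes related to injury less closely. How many of all genes relate to the injury sum as closely as these genes or Edn1 was not counted. Ece1 ran against the injury sum (Pearson r = -0.65, permutation p = 3.0e-04, adjusted p = 0.00112; Spearman rho = -0.69, permutation p = 1.0e-04), with r = -0.52 without the 2 farthest mice and -0.75 in set2. Ednra ran with it (r = 0.63, permutation p = 4.3e-04, adjusted p = 0.00115; rho = 0.63, permutation p = 6.7e-04), with r = 0.57 without the 2 farthest mice and 0.76 in set2. Ednrb did so weakly in the opposite direction (r = -0.43, permutation p = 0.0234, adjusted p = 0.0312; rho = -0.34, permutation p = 0.0842). That relation fell to r = -0.23 without the 2 farthest mice and so rests on them. The most injured mouse by this sum, nephritic ZT0 mouse 3, also had the highest Edn1, 45.4 CPM.

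**Figure D4:**
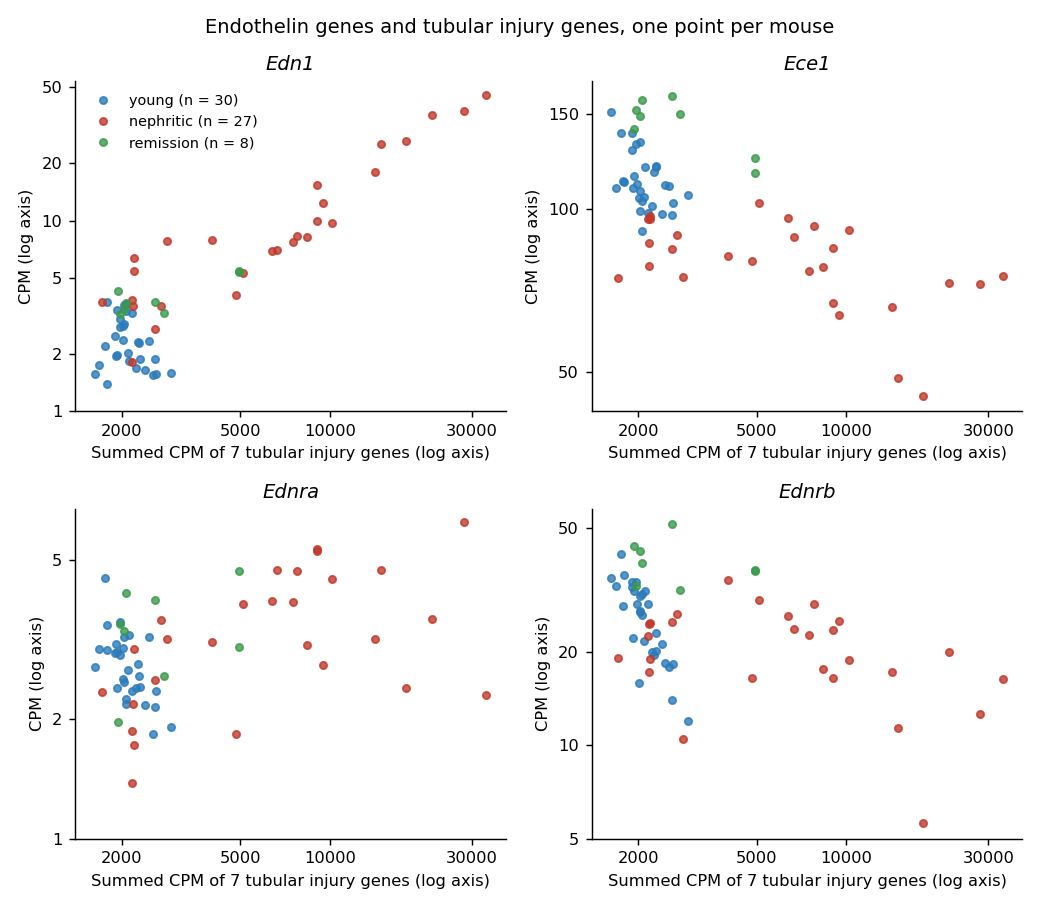
CPM (log axis) of each endothelin gene against the summed CPM of 7 tubular injury genes (log axis). Each point is a mouse. Nephritic mice (red) rise together in Edn1 and the injury sum, Ece1 falls along it, and young mice (blue) occupy the lower left of the Edn1 panel.

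The genes were also set against each other within each diagnosis, on the same adjusted values. For background, all genes were ranked from the highest r with Edn1 in nephritic mice, without removing time point and title series. Of 16871 genes, Ednra ranked 4028, Ece1 14385, Ednrb 13492 and the injury gene Lcn2 178. Many other genes thus ran with or against Edn1 more closely than these did. For Ece1, Ednrb ranked 1074. Over young mice, Ednrb ranked 464 of 16520 for Ednra. In nephritic mice Edn1 ran against Ece1 (Pearson r = -0.73, permutation p = 4.0e-05, adjusted p = 3.2e-04; Spearman rho = -0.73, permutation p = 3.0e-05), with r = -0.64 without the 2 farthest mice and -0.83 in set2. In the 30 young mice the same pair gave r = -0.16 (permutation p = 0.407; rho = -0.07, permutation p = 0.727). The difference between the groups' r values was not tested. Edn1 ran with Ednra in nephritic mice (r = 0.60, permutation p = 8.6e-04, adjusted p = 0.00172; rho = 0.62, permutation p = 6.8e-04), with r = 0.56 without the 2 farthest mice and 0.76 in set2. It ran against Ednrb there (r = -0.56, permutation p = 0.00282, adjusted p = 0.00501; rho = -0.51, permutation p = 0.00707), with r = -0.41 without the 2 farthest mice and, in set2, -0.44 (adjusted p = 0.0614). Ece1 and Ednrb ran together in nephritic mice (r = 0.65, permutation p = 3.0e-04, adjusted p = 0.00112; rho = 0.50, permutation p = 0.00907), with r = 0.55 without the 2 farthest mice and 0.47 in set2.

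The receptors ran together in young mice (Ednra with Ednrb, r = 0.61, permutation p = 3.5e-04, adjusted p = 0.00112; rho = 0.63, permutation p = 2.8e-04), with r = 0.52 without the 2 farthest mice and 0.60 in set2. In nephritic mice they gave r = -0.19 (permutation p = 0.339; rho = -0.16, permutation p = 0.422). Ece1 ran with Ednra in young mice (r = 0.62, permutation p = 5.8e-04, adjusted p = 0.00133; rho = 0.44, permutation p = 0.0157), with r = 0.39 without the 2 farthest mice. In nephritic mice that pair ran the other way (r = -0.47, permutation p = 0.0129, adjusted p = 0.0207; rho = -0.58, permutation p = 0.00196), which without removing time point and title series came to r = -0.09. The remaining young pairs gave r = 0.09 for Edn1 with Ednra (permutation p = 0.643; rho = 0.17, permutation p = 0.369), 0.36 for Edn1 with Ednrb (permutation p = 0.0506, adjusted p = 0.0623; rho = 0.44, permutation p = 0.016) and 0.44 for Ece1 with Ednrb (permutation p = 0.0147, adjusted p = 0.0213; rho = 0.51, permutation p = 0.00482).

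By log2 CPM over the 27 nephritic libraries, which share libraries and their depth, the genes most like Edn1 of 16871 tested were Dcdc2a (r = 0.961), Anxa3 (r = 0.959) and Cp, which encodes ceruloplasmin (r = 0.955). Those most like Ece1 were Lrrc8b (0.947), Rab11fip4 (0.933) and Abca3 (0.929), and those most like Ednra were B3gnt9 (0.888), Mylk, the myosin light chain kinase gene (0.888), and Kcnt2 (0.886). Ednrb was most like the VEGF receptor genes Flt1 (0.895) and Kdr (0.838), then Slco2b1 (0.818). Over the 30 young libraries Ednrb was most like Ptprb (0.916), Plxnd1 (0.909) and Mmrn2 (0.903), Ece1 most like Il6st (0.897), Pggt1b (0.896) and Lmln (0.895), and Ednra most like Gucy1a2 (0.842), Nid1 (0.834) and Tal1 (0.830). Edn1 had no close match in young mice, the nearest being Mir155hg (0.708), Spice1 (0.70) and Abcc5 (0.670).

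Cell type markers were compared in the same fit, in which 62.1% of all genes passed, 4929 higher and 5948 lower, so the counts below stand against that share. Of 12 endothelial markers 7 were lower and none higher in nephritic mice, led by Kdr (log2 change -0.65, SE 0.13), Flt1 (-0.47, SE 0.12) and Tek (-0.36, SE 0.09), with a median of -0.21 against -0.03 over all genes. Their summed CPM ran from 559.1 to 976.8 in young and from 362.2 to 1026.5 in nephritic mice. Of 12 mural and mesangial markers, the cells that carry ETA, 8 were higher and 1 lower, led by Tagln (1.26, SE 0.13), Acta2 (1.00, SE 0.13) and Mcam (0.76, SE 0.09), with a median of 0.40. The lower gene was Itga8 (-0.26, SE 0.11), and Myh11, Pdgfra and Gata3 did not pass. Of 11 collecting duct markers 2 were higher and 2 lower, namely Aqp4 (-1.07, SE 0.24), Slc4a1 (-0.39, SE 0.13), Aqp2 (0.33, SE 0.12) and Foxi1 (0.29, SE 0.07). All 8 leukocyte markers were higher, among them Cd79a (4.76, SE 0.41) and Itgam (4.46, SE 0.19). In bulk kidney RNA fewer cells of a type and less RNA per cell cannot be told apart, and the part of these cell types in the endothelin changes was not tested.

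Elsewhere in the pathway, Edn3 (log2 change -0.01, SE 0.06, edgeR adjusted p = 0.866) and the second converting enzyme gene Ece2 (0.06, SE 0.07, adjusted p = 0.496) did not pass the threshold. Kel, a red cell antigen that can cleave big endothelin-3, was higher (1.37, SE 0.28, adjusted p = 3.6e-05), and Mme, which encodes the peptide-degrading enzyme neprilysin, was lower (-0.55, SE 0.12, adjusted p = 1.1e-04). Of 21 genes of receptor coupling 9 were higher and 5 lower, with a median of 0.06, against the same 62.1% of all genes. The leading changes were Plcb2, a phospholipase C gene (1.51, SE 0.13), Arrb2, which encodes a beta-arrestin (1.22, SE 0.10), and Itpr3, an inositol trisphosphate receptor gene (0.83, SE 0.10). Plcb1 (-0.70, SE 0.08), Itpr2 (-0.56, SE 0.07) and Itpr1 (-0.51, SE 0.08) were the lowest of that list. Of 14 known regulators of Edn1, 6 were higher and 1 lower, with a median of 0.29, again beside 62.1% of all genes. The higher genes were the cytokine genes Tnf (3.03, SE 0.22) and Il1b (2.95, SE 0.19), the thrombin receptor gene F2r (1.17, SE 0.12), Tgfb1 (1.07, SE 0.10), Nfkb1 (0.57, SE 0.06) and Klf2 (0.44, SE 0.07). F2, the prothrombin gene, was lower (-1.63, SE 0.67, edgeR adjusted p = 0.0319). Of the 7 that did not pass, the log2 changes of Hif1a, Jun, Fos, Gata2 and the clock gene Per1 were -0.07, -0.20, 0.42, 0.10 and -0.03.

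**Figure D5:**
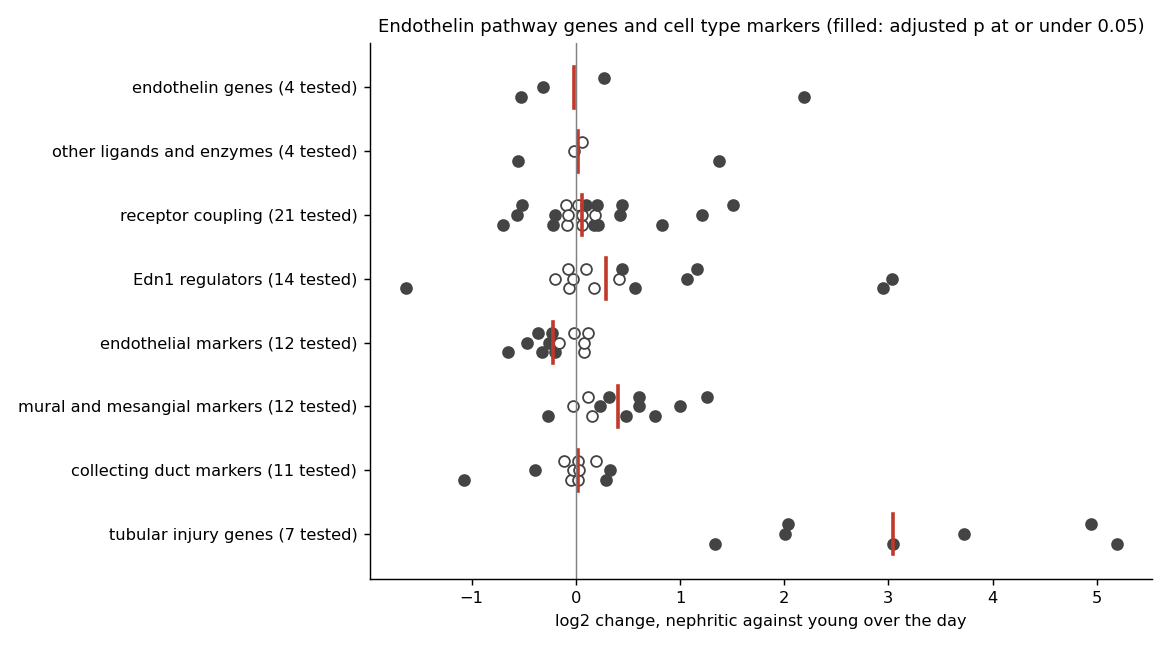
Log2 change in nephritic against young mice over the day for the endothelin genes, their pathway lists and cell type markers. Each point is a gene (filled when it passed an adjusted p of 0.05), rows are offset to keep points apart, and red bars are list medians. The endothelial median is -0.21 and the injury median 3.05.

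Remission mice were compared with nephritic and young mice of ZT0 and ZT12, in fits with time point as a covariate. Before that, the repeat libraries were set against the originals of the same 4 mice. Ece1 was higher in the repeat in all 4, by 0.03 to 0.29 on the log2 scale. Edn1 was higher in 1 of 4 (range -0.65 to 0.55) and Ednra in 1 of 4 (-0.20 to 0.27), while Ednrb moved by 0.10 or less in each. Both rises, 0.55 and 0.27, came from the repeat of nephritic ZT12 mouse 6 that lay nearest to nephritic ZT4 mouse 1, in which Edn1 was 8.35 and Ednra 4.71 CPM, beside 7.83 and 4.71 CPM in the repeat.

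Edn1 was lower in remission than in nephritic kidney. The 4 remission mice of ZT0 held 3.22, 4.26, 3.28 and 3.43 CPM and the 4 of ZT12 held 3.72, 5.45, 5.4 and 3.69 CPM. Of the 13 nephritic mice 9 lay above every remission mouse, and 3 remission mice lay below every nephritic one. The log2 change was -2.05 (SE 0.50, edgeR adjusted p = 0.00357), where 35.8% of genes passed, and 3 of the 4 endothelin genes did. With the naming series as a covariate, bridged by the repeat libraries, it was -1.95 (SE 0.51, adjusted p = 0.00617). That fit treats both libraries of a mouse as separate, and with the repeated mice as a block the value was -1.70 (SE 0.68, adjusted p = 0.158), so the call was lost. In ZT12 libraries alone it was -1.63 (SE 0.56, adjusted p = 0.0775).

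Against young mice, Edn1 in remission was 1.78-fold higher (log2 change 0.83, SE 0.16, edgeR adjusted p = 1.3e-04), with 5 of 8 remission mice above all 14 young mice and 13 of the young below all remission mice. Here 53.0% of genes passed and 3 of the 4 endothelin genes did. With the naming series as a covariate the value was 1.02 (SE 0.55, adjusted p = 0.24), with the block 1.12 (SE 0.67, adjusted p = 0.368), and the call was lost in both. The sum of the 7 injury genes was 1938.2 to 4950.4 CPM in remission, with a median of 2328.5. Over all 30 young mice it was 1621.5 to 2935.8 CPM, with a median of 2043.7. The ranges overlapped, and remission ZT12 mice 2 and 3, at 4950.4 and 4939.0 CPM, lay above the young range. In the fit without the naming series 6 of the 7 injury genes were higher than in young mice, where 53.0% of all genes passed.

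Ece1 stood at 116.6 to 161.6 CPM in remission mice, with a median of 148.9, and all 8 mice lay above the 13 nephritic mice of these times. It was 1.93-fold higher than in nephritic mice (log2 change 0.95, SE 0.13, edgeR adjusted p = 1.4e-05), 0.64 (SE 0.16, adjusted p = 0.00475) with the naming series as a covariate, and 0.77 (SE 0.20, adjusted p = 0.0247) with the repeated mice as a block. Without the mismatched repeat the blocked value was 0.66 (SE 0.23, adjusted p = 0.169). Against young mice it was higher by 0.28 (SE 0.07, edgeR adjusted p = 0.003), a difference that came to -0.00 (SE 0.16, adjusted p = 0.998) with the naming series as a covariate and to 0.06 (SE 0.20, adjusted p = 0.907) with the block.

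Ednrb ranged from 31.6 to 51.6 CPM in remission, with a median of 37.6, and 6 of the 8 mice lay above all nephritic mice of the same times. The log2 change was 0.96 against nephritic (SE 0.22, edgeR adjusted p = 0.00267) and 0.61 against young mice (SE 0.14, edgeR adjusted p = 7.0e-04). With the naming series as a covariate these were 0.94 (SE 0.31, adjusted p = 0.0258) and 0.62 (SE 0.30, adjusted p = 0.188), and with the repeated mice as a block 1.00 (SE 0.39, adjusted p = 0.144) and 0.68 (SE 0.40, adjusted p = 0.343). In ZT12 libraries alone the value against nephritic mice was 0.98 (SE 0.40, adjusted p = 0.123). Endothelial markers moved the same way in the fits without the naming series. There 11 of 12 were higher than in nephritic mice, where 35.8% of all genes passed. Against young mice 11 of 12 were higher, where 53.0% of all genes passed. Marker values were not taken from the fits with the naming series or the block. The summed CPM of these markers was 1044.7 to 1429.4 in remission. The part of endothelial RNA in the Ednrb difference was not tested.

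Ednra ranged from 1.97 to 4.7 CPM in remission and overlapped with both groups (log2 change -0.02, SE 0.21, edgeR adjusted p = 0.951 against nephritic, and 0.28, SE 0.13, adjusted p = 0.0903 against young mice). With the repeated mice as a block the values were 0.16 (SE 0.30, adjusted p = 0.81) and 0.31 (SE 0.31, adjusted p = 0.623). Between ZT0 and ZT12 within remission no gene passed in edgeR (0% called, 1449 at an unadjusted p under 0.05, and 24 by DESeq2), with adjusted p = 0.531 for Edn1, 0.778 for Ece1, 0.505 for Ednra and 0.762 for Ednrb. The ZT12 mouse with high Arntl is among those 8, and without it 202 genes passed. Leaving it out gave log2 changes of -2.05, 0.92, -0.04 and 0.96 for Edn1, Ece1, Ednra and Ednrb against nephritic mice and 0.85, 0.25, 0.24 and 0.63 against young mice, with the same calls. Leaving out the nephritic ZT8 mouse with high Arntl gave 2.17 (adjusted p = 3.3e-11) for Edn1 and -0.29 (adjusted p = 0.0442) for Ednrb over the day in nephritic against young mice.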

How the data were processed

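Kidney mRNA of 65 original libraries and 4 repeat libraries was used. The authors deposited counts per gene symbol, made from uniquely mapped reads on exons and junctions with at most 2 mismatches, on mm10 (GRCm38). The study's text names a Burrows-Wheeler aligner and the submitters' processing notes name HISAT, and both are stated without a version. Symbols with empty cells (15) were left out. Genes with at least 100 counts over a fit were tested in edgeR 4.0.16 (TMM, quasi-likelihood F test, R 4.3.3), with time point and title series (set1 or set2, from the title prefix) as covariates in young and nephritic mice. Alternatives used DESeq2 1.42.0 and others in the closing section. CPM used a prior count of 2 on the log2 scale, and intervals used 1.96 SE. Correlations used 100000 permutations. The models were tested on simulated data. The members and gene lists were chosen with earlier results of these data known. Named genes were the 4 members, the 3 largest changes past the threshold in each list, the 3 nearest genes by r for each member and diagnosis, and Edn2, Edn3 and Ece2. Some genes that this rule names are not reported here. Foxi1, Itga8, Myh11, Pdgfra, Gata3, Plcb1, Itpr1, Itpr2, F2r, Tgfb1, Nfkb1, Klf2, Hif1a, Jun, Fos, Gata2 and Per1 were named after their values were seen. The intervals are those of log2 change, and their SE from the edgeR fit takes in the spread between mice.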

Additional observations from a re-analysis of the deposited data

Results flagged for a closer look

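In 48 groups of 4 to 7 mice, one for each endothelin gene, diagnosis and time point, a mouse was called apart when its gap to the nearest other mouse took an unusually large share of the group's range on the log2 scale. Chance gives about 1 such group in 20, and 2 were found, both in Ednra. Young ZT16 mouse 1 held 3.45 CPM, against 2.94 to 3.01 CPM in the other mice. Young ZT8 mouse 4 held 1.83 CPM, against 2.39 to 2.4 CPM in the others. In both groups the remaining 3 mice were nearly equal.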

How the results depend on the processing

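No paired analysis was possible because replicate numbers were given in accession order, except that 4 mice have a repeat library, which served as a block in the remission fits. Of 424 values of the endothelin genes under other settings, 385 kept direction and side of the threshold, 25 lost and 7 gained the call, and 7 changed sign; of 42 correlations 37 kept both. Of 2256 values with a mouse left out, 2214 kept both. The cause of each change below was not tested. Settings chosen after seeing the data were the fits without the libraries that went against their time label the naming series fit without the mismatched repeat, and the blocked fits.

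In set2 libraries alone Ednrb over the day was -0.16, and at ZT0 0.09. Without libraries with adrenal RNA it was -0.20 over the day and 0.01 at ZT16, where 1 young mouse remained, its adjusted p over young time points was 0.0916, and that of Ece1 for the difference in time course was 0.0343. Without the title series Ednrb over young time points had an adjusted p of 0.065, and with a 24 h cosine Ednra had 0.0283. Against nephritic mice, remission at ZT12 alone gave -1.63 for Edn1, 0.03 for Ednra and 0.98 for Ednrb. Against young mice, ZT12 alone gave 0.22 for Ece1 and 0.53 for Ednra, and ZT0 alone 0.54 for Edn1. With the naming series as a covariate the values against young mice were 1.02 for Edn1, -0.00 for Ece1 and 0.62 for Ednrb, and without the mismatched repeat 0.82, 0.07 and 0.74. With the repeated mice as a block, against nephritic mice they were -1.70 for Edn1, 0.16 for Ednra and 1.00 for Ednrb, and without the mismatched repeat -1.36, 0.25 and 0.94, with 0.66 for Ece1. Against young mice the block gave 1.12 for Edn1, 0.06 for Ece1 and 0.68 for Ednrb, and without that repeat 1.38, -0.00 and 0.67. In nephritic mice Edn1 with Ednrb gave r = -0.44 in set2, and the injury sum with Ednrb -0.35. Without removing time point and title series, r was -0.09 for Ece1 with Ednra, 0.01 for Ednra with Ednrb and -0.40 for the injury sum with Ednrb.

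Leaving out a mouse at a time gave, over the day, 0.23 to 0.33 for Ednra and -0.35 to -0.23 for Ednrb. The Ednrb call was lost without young ZT0 mouse 6 or 7, young ZT12 mouse 1, young ZT16 mouse 1, young ZT20 mouse 3, nephritic ZT12 mouse 1, 2 or 3, or nephritic ZT16 mouse 2 or 3. By time point Ednra ranged over -0.14 to 0.21 (ZT0), -0.21 to 0.17 (ZT8), 0.32 to 0.56 (ZT12), -0.16 to 0.03 (ZT16) and -0.06 to 0.60 (ZT20). Ednrb ranged over -0.06 to 0.27 (ZT4), -0.06 to 0.15 (ZT8), -0.72 to -0.27 (ZT12) and -1.02 to -0.58 (ZT16). Ednra at ZT12 passed the threshold without nephritic ZT12 mouse 2 or nephritic ZT0 mouse 6. Edn1 ranged over 1.05 to 2.19 at ZT16, with the call lost without young ZT16 mouse 2 or 4 or nephritic ZT16 mouse 2. The adjusted p ranged over 0.0489 to 0.234 for Ece1 in the difference in time course, past the threshold without nephritic ZT12 mouse 6, and over 0.00409 to 0.0535 for Ednrb in young mice. In remission Ednra ranged over -0.08 to 0.11 against nephritic and 0.21 to 0.36 against young mice, past the threshold without remission ZT0 mouse 2. Between ZT0 and ZT12 in remission, Ece1 ranged over -0.01 to 0.15 and Ednrb over -0.20 to 0.01.

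Genes called changed by over 1.5 times as follows. At ZT8, 641 became 966 in set2, 128 without adrenal RNA and 155 without the nephritic mouse against its label. That mouse, with an adrenal sum of 13.13 CPM, was the only ZT8 library past the adrenal limit, so both settings leave it out. At ZT12, 8757 became 5080 in set2, and at ZT16, 3104 became 605 without adrenal RNA. The difference in time course went from 1099 to 2187 (DESeq2), 1715 (set2), 693 (repeat libraries) and 121 (cosine). Young time points went from 6583 to 3921 without adrenal RNA, and nephritic ones from 3646 to 5646 (DESeq2), 1994 (no title series) and 362 (cosine). Remission against nephritic went from 5850 to 1940 (ZT0), 2117 (ZT12) 3606 (naming series, without the mismatched repeat), 553 (block) and 246 (block, without that repeat), and against young from 8468 to 2342 (naming series), 1693 (without that repeat), 1238 (block), 577 (block, without that repeat) and 5044 (ZT0).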
